A study of Homo sapiens with 12 samples.

Results

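RNA polymerase I and its initiation factors were examined in HL60 cells as a group of 10 genes, chosen by name from the subunits of the enzyme and the proteins that load it onto ribosomal DNA. They comprised 5 polymerase subunits (POLR1A, POLR1B, POLR1E, POLR1F and POLR1G) and 5 initiation factors (UBTF, RRN3, TAF1A, TAF1C and TAF1D). They were 10 of the 59251 genes in the table of read counts, and 10 of 10 passed the filter on low counts that left 13318 genes for testing. The filter was set on all 4 groups together.

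HL60 is an established human myeloid leukemia cell line. Cells were either non-treated or given all-trans retinoic acid (ATRA), palbociclib, which inhibits CDK4 and CDK6 (CDK4/6i), or the pair of drugs (CDK4/6i+ATRA), with each drug at 1 µM and 48 h of exposure. Each of the 4 groups had 3 RNA-Seq libraries labelled as biological replicates, so 12 libraries came from 1 cell line. The study describes the experiments behind its RNA-Seq scores as independent, and the p-values measure the spread between these libraries. ATRA drives myeloid differentiation, and palbociclib blocks the kinases that carry cells from G1 into S phase.

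RNA polymerase I transcribes the ribosomal DNA repeats in the nucleolus into the precursor of the large ribosomal RNAs, and its output sets the pace of ribosome production. Upstream binding factor, the product of UBTF, bends and opens the repeats. Selectivity factor 1 (SL1), built from the TATA-binding protein and TAF1 subunits, marks the promoter. RRN3 (TIF-IA) then bridges the polymerase to SL1 and leaves the enzyme after initiation. Dividing leukemic cells run this system at a high rate, and myeloid cells lower it as they mature.

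Total counts ranged from 12230923 to 18679544 per library, and 3 counts corresponded to 0.161 to 0.245 CPM, the count scaled to a common library total. The 3 libraries with both drugs had the lowest totals, and their TMM factors of 0.84 to 0.893 lay below the 1.025 to 1.07 of the other 9 libraries. With scaling by library size alone in place of TMM, the median log2 change of all tested genes moved from 0.02 to -0.25 for CDK4/6i+ATRA relative to non-treated, and from -0.02 to -0.34 for the interaction of the drugs. The values below use TMM. Of the promyelocytic markers, MPO (myeloperoxidase) was at 6517 ± 168 CPM (SD, n = 3) and CD33 at 93.9 ± 2.5 CPM (SD, n = 3) in non-treated cells, whereas ELANE, AZU1 and PRTN3 had 0 counts in every library and are also listed on an alternate contig. The summed level of 8 markers of other cell types was 25.7 to 27.5 CPM in non-treated libraries, 32.8 to 33.6 CPM with ATRA, 32.6 to 34.1 CPM with CDK4/6i and 15.1 to 17.5 CPM with both drugs, most of it from PECAM1. The largest called fall among them with both drugs was in CD3E, a T cell gene, from 2.07 ± 0.0963 to 0.813 ± 0.231 CPM (SD, n = 3), a log2 change of -1.33 (adjusted p = 0.000244 by the test described below). Also in this list, MS4A1, HBB and EPCAM were at 0 in every library. In such bulk samples, fewer cells of a kind and less RNA per cell cannot be told apart.

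The promoters of 3 genes are shown because their transcripts fell in different ways: POLR1B and POLR1G mainly with ATRA, and TAF1A mainly with CDK4/6i. Each line gives the 250 bases upstream of a RefSeq transcription start (GRCh38.p14), in the direction of transcription. The windows are chr2:112541786-112542035 on the plus strand for POLR1B, chr19:45406394-45406643 on the plus strand for POLR1G and chr1:222589934-222590183 on the minus strand for TAF1A. Capitals mark an E-box (CACGTG) or a CCAAT box (CCAAT, or ATTGG on the other strand).
POLR1B: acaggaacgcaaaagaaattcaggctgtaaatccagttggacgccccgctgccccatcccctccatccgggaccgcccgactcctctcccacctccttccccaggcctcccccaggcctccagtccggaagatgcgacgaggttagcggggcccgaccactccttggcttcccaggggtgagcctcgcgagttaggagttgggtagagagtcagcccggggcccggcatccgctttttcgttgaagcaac
POLR1G: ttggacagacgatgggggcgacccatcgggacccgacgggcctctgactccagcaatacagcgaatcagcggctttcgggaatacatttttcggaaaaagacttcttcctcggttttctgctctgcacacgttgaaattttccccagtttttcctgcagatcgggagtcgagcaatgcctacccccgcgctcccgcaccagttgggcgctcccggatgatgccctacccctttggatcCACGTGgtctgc
TAF1A: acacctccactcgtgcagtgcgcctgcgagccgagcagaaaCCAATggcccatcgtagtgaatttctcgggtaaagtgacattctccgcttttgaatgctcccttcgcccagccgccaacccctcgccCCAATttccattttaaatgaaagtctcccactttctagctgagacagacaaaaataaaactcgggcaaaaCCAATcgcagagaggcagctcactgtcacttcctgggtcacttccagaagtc

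RefSeq windows were given for 9 of the 10 genes, 12 windows in all, since POLR1B, RRN3 and UBTF have 2 starts each. POLR1E has no entry. The E-box is the sequence that MYC and related factors bind, and POLR1G alone among the 9 genes held one, starting 12 bases before the start. Over 14048 windows of tested genes, 8.41% held CACGTG, 33.1% held CCAAT, 61.9% held the GC box GGGCGG and 6.04% held TATAAA, on either strand. CCAAT boxes were found in TAF1A (3), TAF1C (2) and 1 of the 2 RRN3 windows, and no window held TATAAA. The GC content was 79.2% and 70.8% in the UBTF windows and 43.2% in that of POLR1A, against a median of 64.0% over all windows. These matches describe the letters only.

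The level per length, as CPM per kb of exon, set the genes in an order in non-treated cells. UBTF was highest at 66.7 ± 1.46 CPM per kb (SD, n = 3). POLR1F (29.5 ± 0.218), POLR1E (27.9 ± 1.33) and TAF1D (27.3 ± 1.32) followed, and the SD ranges of POLR1E and TAF1D overlapped. POLR1B (19.5 ± 0.443) and POLR1A (18.9 ± 0.668), the core pair of the enzyme, also differed by less than their spread. POLR1G stood at 8.74 ± 0.344, TAF1C at 4.44 ± 0.524, TAF1A at 3.10 ± 0.279 and RRN3 at 0.374 ± 0.145 CPM per kb. The places of POLR1G, which shares exon bases with another gene, and of RRN3, which has a second listing, are uncertain, as described below. With both drugs the order was UBTF, TAF1D, POLR1F, POLR1A, POLR1E, POLR1B, TAF1C, TAF1A, POLR1G and RRN3. TAF1D moved up from the fourth place to the second, and POLR1G moved down from the seventh to the ninth, at 0.516 ± 0.011 CPM per kb (SD, n = 3).

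**Figure D1:**
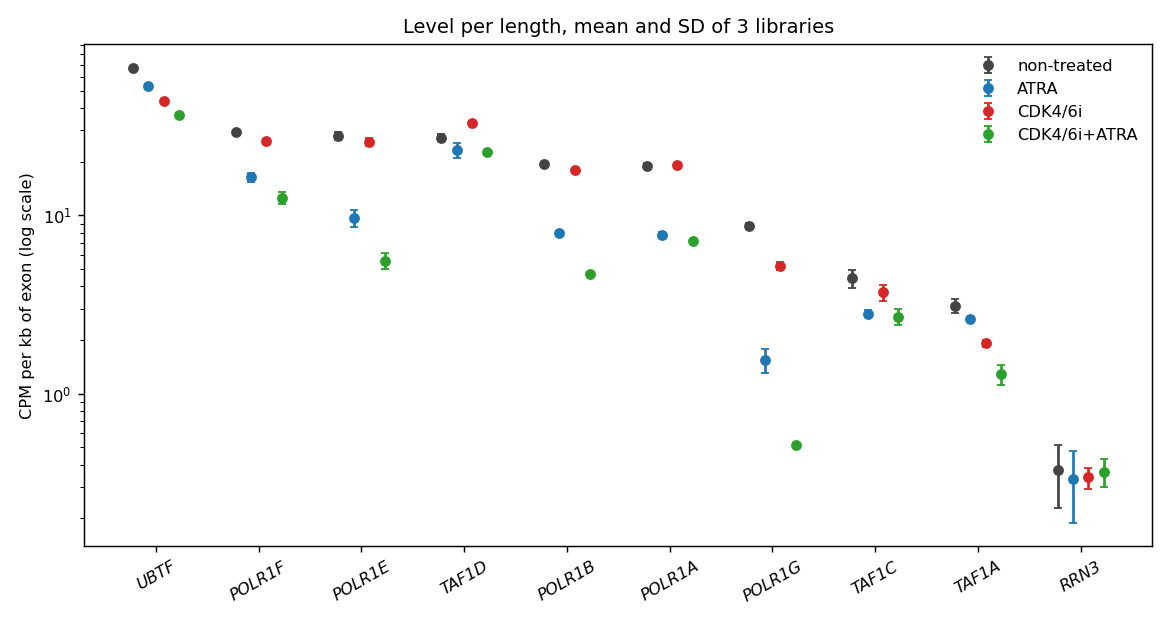
Level of each gene per kb of exon (log scale) in the 4 groups, as the mean and SD of 3 libraries. UBTF led in every group, and POLR1G dropped from 8.74 to 0.516 CPM per kb with both drugs while the means of RRN3 lay between 0.333 and 0.374.

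POLR1A and POLR1B encode the catalytic core, the largest and second largest subunits, which together form the active site. POLR1A (chr2:86020216-86105886, minus strand) was at 236, 227 and 244 CPM in the non-treated libraries, 92.9, 99.9 and 97.6 with ATRA, 241, 236 and 244 with CDK4/6i, and 90.9, 90.6 and 88.1 with both drugs. The 6 libraries that received ATRA were far below the 6 that did not, and non-treated and CDK4/6i libraries overlapped. ATRA lowered POLR1A by 1.28 on the log2 scale (log2 change -1.28 ± 0.04 SE, adjusted p = 3.67e-32). This and every adjusted p-value below came from the quasi-likelihood test of edgeR, adjusted by Benjamini-Hochberg over all tested genes, unless another tool is named. The CDK4/6i change was 0.03 (95% interval -0.05 to 0.10, adjusted p = 0.538).

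POLR1B (chr2:112542036-112579818, plus strand) was at 163, 158 and 156 CPM in non-treated libraries, 62.8, 66.3 and 65.6 with ATRA, 146, 145 and 145 with CDK4/6i, and 38.8, 38.5 and 37.5 with both. The 4 groups did not overlap, with the CDK4/6i libraries just under the non-treated ones. POLR1B fell with ATRA (-1.29 ± 0.04 SE), slightly with CDK4/6i (-0.12 ± 0.04, adjusted p = 0.00556) and most with both drugs (-2.05 ± 0.05). CDK4/6i on top of ATRA lowered POLR1B by 0.76 (adjusted p = 4.77e-18) but POLR1A by 0.11 (adjusted p = 0.0285). The latter call was lost without ATRA replicate 2 (-0.09, adjusted p = 0.13), ATRA replicate 3 (-0.10, adjusted p = 0.0696) or CDK4/6i+ATRA replicate 3 (-0.09, adjusted p = 0.095).

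POLR1E and POLR1G encode the PAF53 and PAF49 proteins, a detachable pair that aids initiation and elongation. POLR1G (chr19:45406644-45410737, plus strand) was at 25.8, 23.9 and 24.4 CPM in non-treated libraries, 4.87, 4.61 and 3.59 with ATRA, 14.5, 15.6 and 14.2 with CDK4/6i, and 1.47, 1.43 and 1.49 with both, the last from 16, 16 and 18 counts. The 4 groups were separate, and the CDK4/6i+ATRA libraries held 0.0591 of the non-treated level. Its log2 changes were -2.51 ± 0.11 SE with ATRA, -0.74 ± 0.09 with CDK4/6i and -4.07 ± 0.16 with both (adjusted p = 9.52e-29), the largest of the 10 genes in each of the 3 comparisons. The gene shares 1593 of its 2828 exon bases with ERCC1, a DNA repair gene on the opposite strand, and the use of strand in counting is not given in the sources used here. ERCC1 was at 68.7 ± 3.02, 56.7 ± 3.4, 67.2 ± 3.26 and 62.6 ± 1.43 CPM (SD, n = 3) in the same order of groups, so its largest change was -0.28 with ATRA (adjusted p = 8.33e-06).

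POLR1E (chr9:37485948-37503697, plus strand) was at 64.7, 70.9 and 66.5 CPM in non-treated libraries, 20.3, 25 and 24.5 with ATRA, 66.2, 59.7 and 61.5 with CDK4/6i, and 12.6, 12.7 and 15 with both. Non-treated and CDK4/6i libraries overlapped, and the others were separate from them and from each other. ATRA lowered it (-1.53 ± 0.07 SE) and both drugs lowered it more (-2.32 ± 0.08), whereas the CDK4/6i change of -0.11 had an adjusted p of 0.12 (0.0381 without CDK4/6i replicate 1, at -0.16). POLR1F (chr7:19695461-19709037, minus strand), a subunit of the stalk through which the enzyme meets RRN3, ranged from 114 to 116 CPM in non-treated libraries, 61 to 68 with ATRA, 101 to 103 with CDK4/6i and 45.2 to 52.6 with both. It fell with ATRA (-0.85 ± 0.05), CDK4/6i (-0.18 ± 0.05, adjusted p = 0.000625) and both (-1.22 ± 0.05).

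Because a ratio within a library does not depend on scaling, the subunits were also set against POLR1A. The POLR1B to POLR1A ratio per length was 1.03 ± 0.0464 (SD, n = 3) without drug, 1.03 ± 0.00938 with ATRA, 0.931 ± 0.0159 with CDK4/6i and 0.654 ± 0.000936 with both drugs. The POLR1G ratio was 0.463 ± 0.0193, 0.199 ± 0.0347, 0.272 ± 0.0186 and 0.0717 ± 0.00256 in the same order, and its 4 groups did not overlap. The POLR1F ratio went the other way with ATRA, from 1.56 ± 0.0492 to 2.11 ± 0.138. With 3 libraries against 3, an exact two-sided permutation test of a ratio cannot go below 0.1, and none was run.

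**Figure D2:**
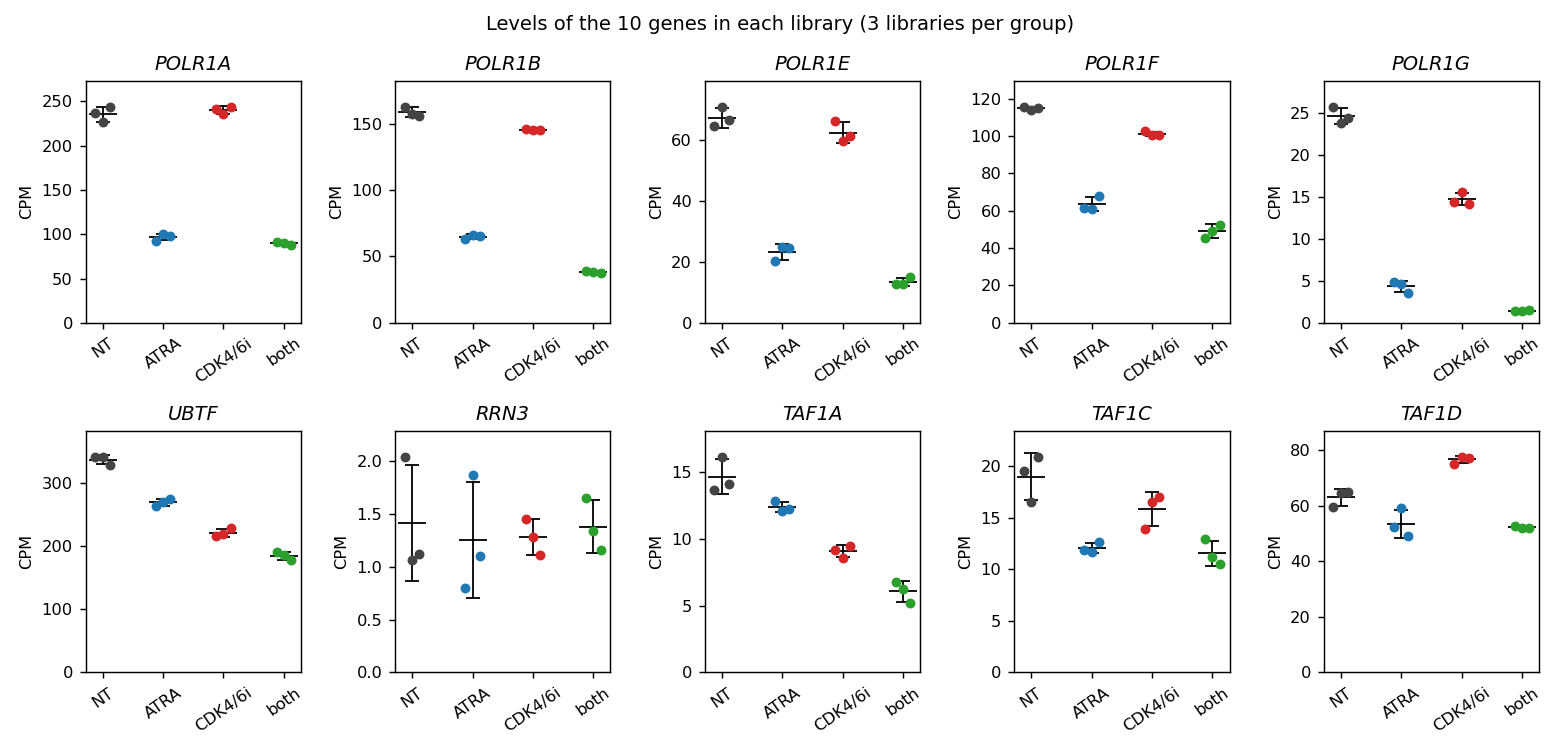
CPM of each gene in each of the 12 libraries (points), with the mean and SD of the 3 libraries per group; NT is non-treated and both is CDK4/6i+ATRA, and each vertical axis starts at 0. The 5 polymerase subunits drop in both groups with ATRA, UBTF and TAF1A step down through ATRA, CDK4/6i and both, and RRN3 overlaps throughout.

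Among the initiation factors, UBTF (chr17:44205040-44221304, minus strand) was at 340, 341 and 328 CPM in non-treated libraries, 264, 269 and 274 with ATRA, 216, 218 and 228 with CDK4/6i, and 190, 185 and 177 with both. The groups stepped down without overlap, and CDK4/6i lowered UBTF more than ATRA did. Its log2 changes were -0.32 ± 0.04 SE with ATRA, -0.61 ± 0.04 with CDK4/6i and -0.87 ± 0.04 with both drugs (adjusted p = 4.5e-26).

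The SL1 subunits differed from each other. TAF1A (chr1:222554105-222589933, minus strand) was at 13.7, 16.2 and 14.1 CPM in non-treated libraries, 12.8, 12.1 and 12.3 with ATRA, 9.18, 8.62 and 9.48 with CDK4/6i, and 6.78, 6.24 and 5.21 with both. It followed the order of UBTF, with the groups apart. TAF1A fell with CDK4/6i (-0.69 ± 0.11 SE, adjusted p = 3.34e-07) and with both (-1.27 ± 0.13), and less with ATRA (-0.24 ± 0.10, adjusted p = 0.0368). The ATRA call was lost without non-treated replicate 2 (-0.17, adjusted p = 0.213), ATRA replicate 2 (-0.23, adjusted p = 0.0912) or ATRA replicate 3 (-0.23, adjusted p = 0.0808), and with DESeq2's test (-0.21, adjusted p = 0.124). It was also lost with DESeq2's size factors (adjusted p = 0.0717), library size alone (0.0908), a minimum of 10 counts in every library (0.059) and only the groups compared (0.0687), at -0.20 to -0.21.

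TAF1D (chr11:93730194-93741495, minus strand) was at 59.6, 64.7 and 64.9 CPM in non-treated libraries, 52.3, 59.1 and 49.2 with ATRA, 75.1, 77.7 and 77.2 with CDK4/6i, and 52.9, 52 and 52.1 with both. The CDK4/6i libraries were above all others, and the ATRA libraries overlapped those with both drugs. It rose with CDK4/6i (0.28 ± 0.05 SE, adjusted p = 9.94e-06), the only rise among the 10 genes against non-treated cells, and fell with ATRA (-0.24 ± 0.06) and with both (-0.27 ± 0.06). TAF1D shares 165 of its 2311 exon bases with CEP295, a centriole gene on the opposite strand. CEP295 had log2 changes of 0.31 with ATRA (adjusted p = 0.000181), -0.69 with CDK4/6i (adjusted p = 1.27e-10) and -1.58 with both (adjusted p = 1.43e-20). TAF1D also carries 9 small RNA genes on its own strand. Of these, SNORA40 fell with both drugs (-1.70, adjusted p = 2.36e-07) while SNORA32 (-0.54, adjusted p = 0.267) and SNORA8 (-0.57, adjusted p = 0.226) did not pass the test.

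TAF1C (chr16:84177855-84187057, minus strand), the SL1 subunit that meets RRN3, ranged from 16.6 to 20.9 CPM in non-treated libraries, 11.7 to 12.7 with ATRA, 14 to 17 with CDK4/6i and 10.6 to 12.9 with both. It fell with ATRA (-0.66 ± 0.10 SE) and with both drugs (-0.72 ± 0.11), and those groups overlapped. Its smaller fall with CDK4/6i (-0.27 ± 0.10, adjusted p = 0.0146) was lost without non-treated replicate 1 (-0.25, adjusted p = 0.051), non-treated replicate 3 (-0.19, adjusted p = 0.13) or CDK4/6i replicate 1 (-0.19, adjusted p = 0.126).

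RRN3 (chr16:15060022-15094335, minus strand) had 13 to 34 counts per library. It was at 2.04, 1.07 and 1.13 CPM in non-treated libraries, 0.801, 1.87 and 1.10 with ATRA, 1.45, 1.28 and 1.11 with CDK4/6i, and 1.65, 1.34 and 1.16 with both. The 4 groups overlapped. The change with both drugs was -0.04, with a 95% interval of -0.76 to 0.69 (adjusted p = 0.928), and a change inside that interval was not detectable at these counts. Without non-treated replicate 1 the changes with ATRA, CDK4/6i and both turned to 0.20, 0.23 and 0.32. RRN3 has 2 listings in the table, with 18 exon blocks on chromosome 16 and 18 on an alternate contig, and how reads that fit both were counted is not given in the sources used here. Of protein-coding genes so listed, 36.6% passed the filter, against 57.1% of those on a primary chromosome alone. With the table's own length of 7560 bases over both listings, in place of 3780 bases on chromosome 16, its level per length relative to POLR1A in non-treated cells would be 0.00988 in place of 0.0198. The level of RRN3 is therefore uncertain, and the part of the second listing in it was not tested.

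Of the RRN3 pseudogenes, which resemble it in sequence, RRN3P3 (5.03 ± 0.521 CPM in non-treated cells, 9.39 ± 1.43 with both drugs, SD, n = 3) and RRN3P2 (2.78 ± 0.378 and 4.98 ± 1.09 CPM) rose with both drugs, by 0.90 (adjusted p = 9.41e-07) and 0.83 (adjusted p = 0.000314) on the log2 scale. RRN3P1 was at 1.24 ± 0.29 and 1.71 ± 0.481 CPM (log2 change 0.46, adjusted p = 0.199). UBTFL1, a retrotransposed relative of UBTF, had 0 counts in every library. Reads could be split between such copies, so their values are uncertain too.

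Across the group, ATRA lowered 9 of the 10 genes and raised 0, where 35.5% of all tested genes were lower and 32.1% higher. CDK4/6i lowered 6 and raised 1, against a background of 27.9% lower and 28.3% higher. In TAF1A the ATRA call depended on the setting, so 8 genes were lower with ATRA under each alternative that lost it. Both drugs lowered 9 and raised 0, against 40.7% and 41.0% of all genes. With library size alone the 9 and 0 stayed, whereas all genes split into 6431 lower and 4376 higher in place of 5424 and 5461. With ATRA the median log2 change was -1.29 for the 5 subunits and -0.24 for the 5 factors, and with CDK4/6i it was -0.12 and -0.27, beside -0.03 and 0.02 for all tested genes.

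**Figure D3:**
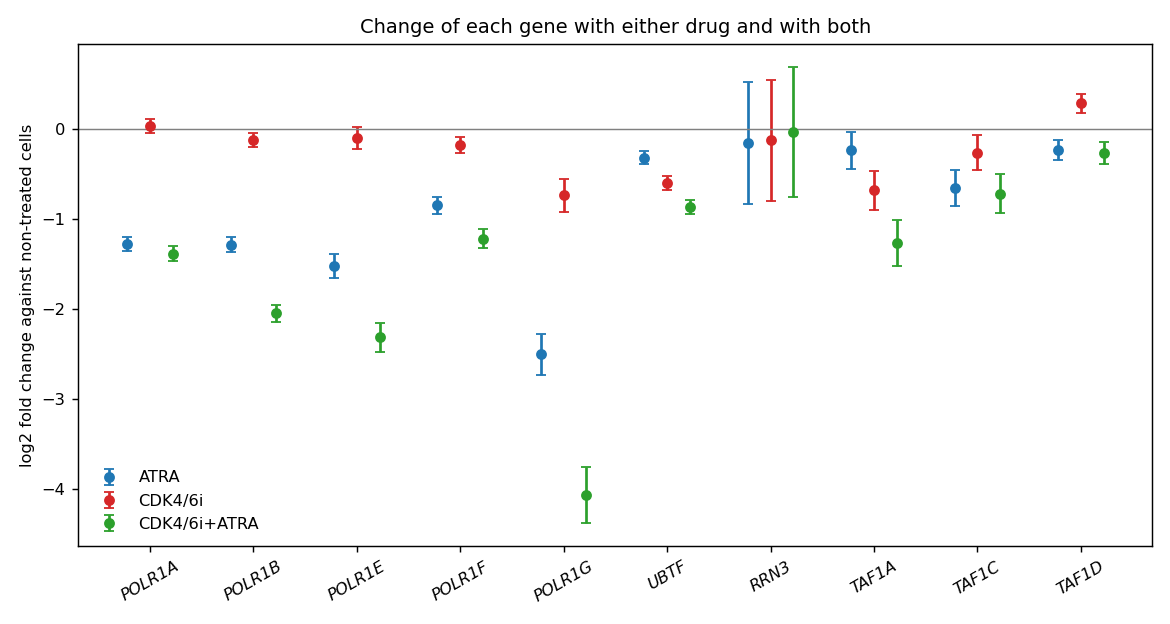
Log2 fold change of each gene with ATRA, CDK4/6i or CDK4/6i+ATRA relative to the non-treated group, with 95% intervals from the fit of 12 libraries. The subunits lie at -0.85 to -2.51 with ATRA, and with CDK4/6i at -0.18 to 0.03 apart from POLR1G at -0.74. UBTF and TAF1A lie lower with CDK4/6i than with ATRA, and TAF1D is above 0 with CDK4/6i.

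The direct comparison of ATRA with CDK4/6i was added after the values were seen. Of the 10, 7 were lower with ATRA (35.6% of all genes) and 2 were higher (35.2%). The lower genes were the 5 subunits, from -0.67 ± 0.05 SE for POLR1F to -1.77 ± 0.12 for POLR1G, together with TAF1C (-0.39 ± 0.10) and TAF1D (-0.52 ± 0.05). UBTF (0.28 ± 0.04, adjusted p = 2.48e-09) and TAF1A (0.45 ± 0.11, adjusted p = 0.000364) were the higher ones. RRN3 was at -0.03 (adjusted p = 0.943).

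Adding CDK4/6i to ATRA lowered 7 of the 10 genes further and raised 0, against 32.8% and 36.9% of all genes. The falls were -1.56 ± 0.21 SE for POLR1G, -1.03 ± 0.13 for TAF1A, -0.79 ± 0.09 for POLR1E, -0.76 ± 0.05 for POLR1B, -0.55 ± 0.04 for UBTF, -0.37 ± 0.06 for POLR1F and -0.11 ± 0.04 for POLR1A. TAF1C (-0.06, 95% interval -0.30 to 0.17), TAF1D (-0.03, -0.15 to 0.09) and RRN3 did not pass the test. With library size alone, TAF1C (-0.37, adjusted p = 0.00729) and TAF1D (-0.34, adjusted p = 1.34e-05) were called lower, and all genes split into 6412 lower and 2956 higher in place of 4371 and 4920. Adding ATRA to CDK4/6i lowered 9 genes and raised 0, against 39.5% and 39.1% of all genes (6554 lower and 3805 higher with library size alone, in place of 5261 and 5212), from -0.26 ± 0.04 for UBTF to -3.33 ± 0.17 for POLR1G. In 7 genes, all but RRN3, TAF1C and TAF1D, each CDK4/6i+ATRA library was below every other library, as in 25.7% of all tested genes.

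The interaction of the drugs, the log2 change with both minus the sum of the 2 single changes, asked whether the folds multiply. It was negative in 6 of the 10 genes and positive in 0 past the threshold, against 27.0% and 24.5% of all genes, and 5 of the 6 were polymerase subunits. POLR1B had -0.64 ± 0.07 SE (adjusted p = 8.71e-12), POLR1E -0.68 ± 0.11 (adjusted p = 7.17e-07) and POLR1G -0.82 ± 0.24 (adjusted p = 0.00319). For POLR1B the product of the single folds would leave 59.6 CPM, and 38.3 CPM was measured. TAF1D had -0.31 ± 0.08 (adjusted p = 0.000787): it rose with CDK4/6i alone, while CDK4/6i on top of ATRA gave a change of -0.03 that did not pass the test.

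The interaction of POLR1F (-0.19 ± 0.07, adjusted p = 0.022) was lost without ATRA replicate 3 (-0.14, adjusted p = 0.116), CDK4/6i replicate 1 (-0.17, adjusted p = 0.0546) or CDK4/6i+ATRA replicate 1 (-0.14, adjusted p = 0.115). That of POLR1A (-0.14 ± 0.06, adjusted p = 0.044) was lost without any 1 of 8 libraries, with values of -0.14 (non-treated replicate 1), -0.11 (non-treated replicate 2), -0.11 (ATRA replicate 2), -0.13 (ATRA replicate 3), -0.12 (CDK4/6i replicate 1), -0.13 (CDK4/6i replicate 3), -0.14 (CDK4/6i+ATRA replicate 2) and -0.12 (CDK4/6i+ATRA replicate 3), and adjusted p of 0.0572 to 0.133. Leaving out ATRA replicate 3 or CDK4/6i replicate 1 thus took the count of called genes from 6 to 4. TAF1A had -0.35 ± 0.17 (adjusted p = 0.0875), which passed without non-treated replicate 2 (-0.42, adjusted p = 0.0487) or CDK4/6i+ATRA replicate 1 (-0.43, adjusted p = 0.0488) and with library size alone (-0.66, adjusted p = 0.00123).

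UBTF (0.06, 95% interval -0.05 to 0.17), TAF1C (0.21, adjusted p = 0.266) and RRN3 (0.26, adjusted p = 0.7) did not pass, and with library size alone their interactions turned to -0.26 (adjusted p = 9.39e-05), -0.11 (adjusted p = 0.568) and -0.06 (adjusted p = 0.93), where all genes split into 6061 lower and 1375 higher in place of 3594 and 3258. On a linear scale, which asks whether differences in CPM add, POLR1B (-13.6 CPM, adjusted p = 0.00151) and TAF1D (-14.9 CPM, adjusted p = 0.00237) were still lower than the sum. UBTF was higher (30.4 CPM, adjusted p = 0.00145), and POLR1G also turned positive (7.03 CPM, adjusted p = 2.68e-05), since its single falls add up to a level of -5.58 CPM that no library can reach. POLR1E (-4.90 CPM, adjusted p = 0.217), POLR1A (-11.6 CPM, adjusted p = 0.0793) and POLR1F (-1.02 CPM, adjusted p = 0.82) did not pass on that scale.

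**Figure D4:**
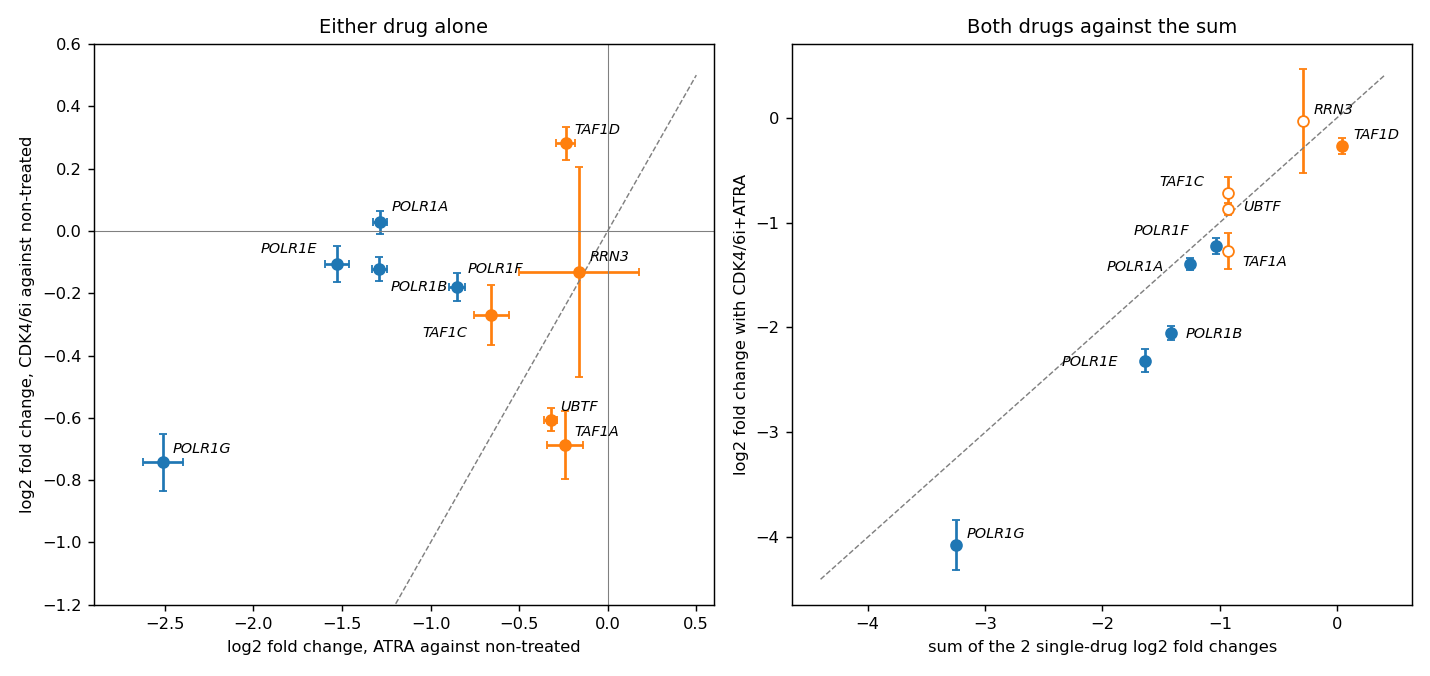
Left, log2 fold change with CDK4/6i against that with ATRA for each gene (SE bars; dashed line, equal changes; blue, polymerase subunits; orange, initiation factors). Right, log2 fold change with both drugs against the sum of the single changes (bars, SE of the interaction; dashed line, equality; filled points, interaction past the threshold); POLR1B, POLR1E and POLR1G lie 0.64, 0.68 and 0.82 below the line.

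The proliferation markers moved differently from the subunits. MKI67, TOP2A and CCNB1 had a summed level of 1524 to 1581 CPM in non-treated libraries, 2236 to 2297 CPM with ATRA, 103 to 117 CPM with CDK4/6i and 28.2 to 32 CPM with both drugs, so 3 of 3 rose with ATRA, as 32.1% of all genes did, and 3 of 3 fell with CDK4/6i, as 27.9% did. The part of cell division in the results on the 10 genes was not tested. Markers of differentiation moved with the drugs as well. CD38 was at 400 ± 8.08 CPM with ATRA and 405 ± 8.81 with both drugs, but at 0.179 ± 0.263 without drug and 0.188 ± 0.165 with CDK4/6i (SD, n = 3). ITGAM (CD11b) was at 9.25 ± 0.947, 274 ± 2.69, 24.3 ± 1.19 and 590 ± 13.4 CPM without drug, with ATRA, with CDK4/6i and with both, so it was highest with both drugs. MPO, a promyelocytic granule enzyme, was at 6517 ± 168, 293 ± 27.4, 3469 ± 66.4 and 28.0 ± 5.15 CPM in the same order, lowest with both. CD33, the other promyelocytic marker tested, did not follow MPO, at 93.9 ± 2.5, 77.9 ± 3.41, 118 ± 3.43 and 99.8 ± 5.24 CPM. It was lower with ATRA (-0.27, adjusted p = 1.18e-06) and higher with CDK4/6i (0.34, adjusted p = 6.35e-09), and its change with both drugs was 0.09 (adjusted p = 0.0805), or -0.18 with library size alone (adjusted p = 0.000599). The part of differentiation in the results on the 10 genes was not tested either. CYP26A1 had 0 to 2 counts.

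The remaining parts of the enzyme and of SL1 were examined next. Of 8 further subunits of RNA polymerase I, 7 were tested, and with both drugs 6 fell and 0 rose, where 40.7% of all tested genes were lower and 41.0% higher. Their median log2 change was -0.43, against -2.05 for the 5 subunits above and 0.02 for all genes. The largest fall was in POLR2H, shared by all the nuclear polymerases, at -1.79 ± 0.06 SE. POLR1C fell by 0.93 on the log2 scale (adjusted p = 4.94e-17), while POLR1D, its assembly partner in polymerases I and III, had -0.05 (adjusted p = 0.219). With library size alone POLR1D had -0.32 (adjusted p = 2.15e-10), which made 7 of 7 lower, where 6431 of the 13318 tested genes were lower and 4376 higher. POLR1H had 0 to 3 counts and is listed on 7 further contigs. The SL1 subunits TBP (-1.01 ± 0.09) and TAF1B (-0.95, adjusted p = 7.43e-12) fell as well, so of the 5 SL1 subunits 5 were lower with both drugs.

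The other polymerases gave a comparison. Of the 7 subunits that belong to RNA polymerase II alone, 4 fell and 1 rose with both drugs, with a median of -0.10, beside the same 40.7% lower and 41.0% higher among all genes. The extremes were POLR2I (-1.84 ± 0.08 SE) and POLR2G (0.14 ± 0.05, adjusted p = 0.0125). With library size alone POLR2G turned to -0.13 (adjusted p = 0.0232), and 7 of 7 were lower, where 6431 of the 13318 tested genes were lower and 4376 higher. RNA polymerase III makes 5S ribosomal RNA and transfer RNAs. Of 10 genes for subunits that belong to it alone, with shared subunits left out, 8 fell and 2 rose (40.7% and 41.0% of all genes), with a median of -0.96. The rise of POLR3F (0.22, adjusted p = 0.0371) was lost with library size alone (-0.05, adjusted p = 0.685). POLR3G (-3.50, adjusted p = 3.65e-20) fell most, and its paralogue POLR3GL rose (0.66, adjusted p = 4.41e-09).

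Proteins that work beside RNA polymerase I in the nucleolus fell in 8 of 8 genes with both drugs, as 40.7% of all tested genes did, with a median of -2.13. TOP2A, also a proliferation marker, fell by 5.89 on the log2 scale. TCOF1 (treacle, which holds UBF on ribosomal DNA) had -3.62, NOLC1 -2.74, nucleolin (NCL) -2.55, DDX21 -1.71 and nucleophosmin (NPM1) -1.60. TOP2B (-0.76) and TOP1 (-0.14) fell least. Of 11 tested genes of ribosomal DNA chromatin and termination, 6 fell and 5 rose, against 40.7% and 41.0% of all genes. Of the 5, SIRT1 (0.28, adjusted p = 0.00044) lost its call with library size alone (0.01, adjusted p = 0.895). SUV39H1, a histone methyltransferase, fell most (-3.76 ± 0.10 SE), and BAZ2A (TIP5), the large subunit of the nucleolar remodelling complex that silences repeats, rose most (1.17 ± 0.04, adjusted p = 1.95e-29). CAVIN1, a release factor, had 0 to 3 counts.

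Of 8 tested upstream regulators of RNA polymerase I, 5 fell and 3 rose with both drugs, where the background was 40.7% lower and 41.0% higher. MYC, a transcription factor that raises the output of RNA polymerase I, was at 1292 ± 12.2 CPM without drug (SD, n = 3), 151 ± 8.1 with ATRA, 1183 ± 15 with CDK4/6i and 84.4 ± 7.19 with both. Its log2 changes of -3.10, -0.13 and -3.94 with ATRA, CDK4/6i and both stood beside those of POLR1B (-1.29, -0.12 and -2.05) and UBTF (-0.32, -0.61 and -0.87). MAPK3 (ERK1), a kinase that acts on RRN3 and UBF, rose most (0.64 ± 0.08 SE, adjusted p = 1.78e-09). CSNK2B had at most 1 count, is also listed on 6 further contigs and was not tested.

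**Figure D5:**
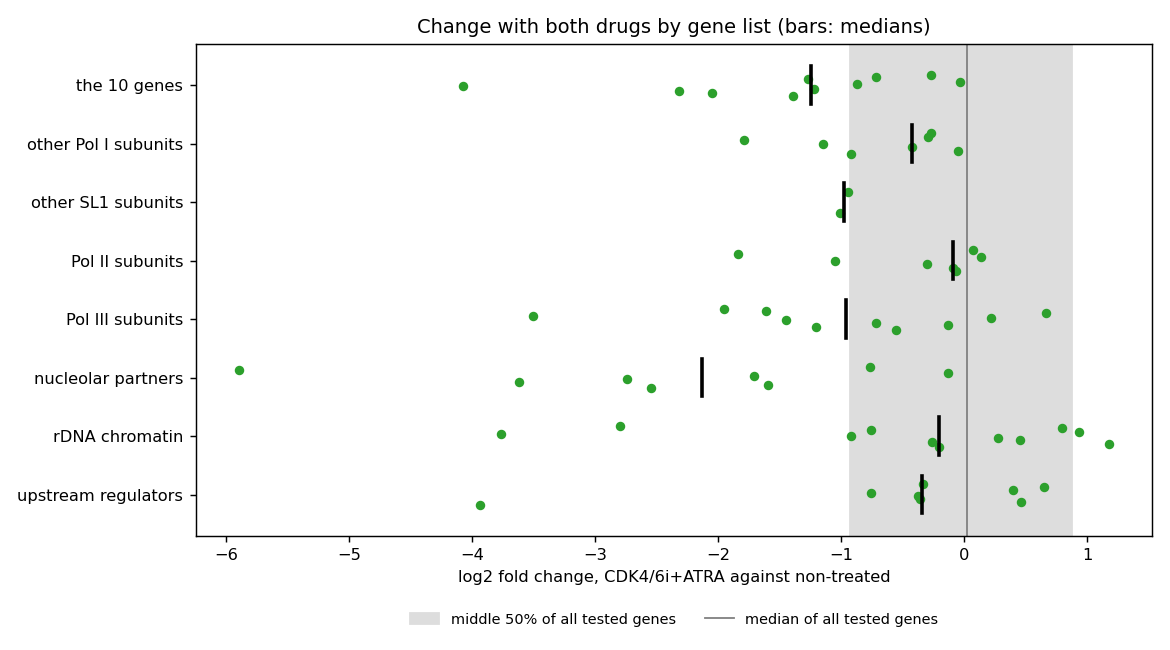
Log2 fold change with CDK4/6i+ATRA relative to the non-treated group for the tested genes of each list (points) with the list's median (bar); the shaded band holds the middle 50% of all 13318 tested genes and the line is their median. The 10 genes have a median of -1.25, the nucleolar partners -2.13 and the subunits that belong to RNA polymerase II alone -0.10.

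Among 9300 genes with a mean of at least 5 CPM, those whose log2 changes in the 3 comparisons with non-treated cells lay closest to POLR1B were AIMP2 (distance 0.0324), DNAAF2 (0.0772), PEMT (0.0882), SRPRB (0.0968) and MRPL24 (0.12). POLR1E ranked 97 and POLR1A 449 by this distance. The closest to POLR1G were TSPOAP1 (0.255), GAL (0.38), MTSS2 (0.408), ABCB10 (0.413) and RAC3 (0.434), and POLR1E ranked 335. With Pearson correlation of log2 CPM over the 12 libraries as the measure, 1 of the 5 genes nearest to POLR1B and 0 of the 5 nearest to POLR1G were among the closest 5 again, so the names depend on the measure. The changes rest on the same 3 non-treated libraries for each gene.

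The product of RNA polymerase I was hardly covered. Of 562 ribosomal RNA entries, 480 had 0 counts in every library, and all entries together took at most 0.000793% of the counts. Removal of ribosomal RNA or selection of polyadenylated RNA is not given in the sources used here. The 5 entries of the 45S precursor summed to 2.76 to 3.79 CPM in non-treated libraries, 2.38 to 4.38 with ATRA, 2.93 to 3.73 with CDK4/6i and 4.99 to 5.78 with both drugs. With library size alone in place of TMM, the sums with both drugs were 4.27 to 5.07 CPM and overlapped the 2.53 to 4.66 CPM with ATRA. The sums rest on 43 to 71 counts per library, so counting error alone is large. RNA45SN2 (0.82 ± 0.38 SE, adjusted p = 0.0451) and RNA45SN4 (0.64 ± 0.27, adjusted p = 0.0254) passed the test with both drugs, and both calls were lost with library size alone (0.55, adjusted p = 0.172, and 0.38, adjusted p = 0.188). The entries are near-identical repeats, so the share of each is uncertain, and the traces do not measure transcription of ribosomal DNA.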

How the data were processed

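Total RNA of HL60 cells was prepared with a directional library kit. Reads were trimmed with Trimmomatic 0.33 and aligned to hg38 with STAR 2.7.11a, per the submitters' processing notes, under the RefSeq annotation. The authors deposited unnormalized counts of reads per gene as whole numbers. Their methods name RSEM, whereas the table has the layout of featureCounts, and they tested the counts with DESeq2. Groups were taken from the sample labels.

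Here, filterByExpr with the 4 groups left 13318 of the 59251 genes, which were normalized with TMM and tested in edgeR 4.0.16 (R 4.3.3) with the quasi-likelihood test on a model of the 4 groups (8 residual degrees of freedom, p-values adjusted by Benjamini-Hochberg across the whole set, threshold 0.05). Fold changes are on the log2 scale, and intervals are at 95%. CPM uses TMM-scaled library sizes. Total counts of 12230923 to 18679544 made 3 counts equal to 0.161 to 0.245 CPM when TMM was left out, and such a floor covers counting error only. Libraries of a group differed beyond sampling noise (chi-square divided by its degrees of freedom, 1.81 to 6.22). The fit was tested on simulated data.

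The 10 genes, the other lists and the tests were chosen with earlier results of these data known, and POLR1B and POLR1G are also named in the study. Named were the 10 genes, MYC, copies and overlapping genes, the largest called rise and fall of each list with both drugs at a mean of at least 1 CPM, and the 5 nearest genes to POLR1B and to POLR1G. Further genes were picked with their values known. The direct comparison of ATRA with CDK4/6i and other scalings for the 45S entries and the lists were added after seeing the data. The alternatives tried were scaling by library size alone or by DESeq2's size factors, DESeq2 1.42.0 for the test, a minimum of 10 counts, no filter, only the groups compared, no genes on alternate contigs, a replicate block, a linear scale (limma 3.58.1 on CPM) and leaving out each library. Promoter windows came from RefSeq (GRCh38.p14). Figures were drawn with matplotlib 3.10.9.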

Additional observations from a re-analysis of the deposited data

Results flagged for a closer look

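By the test on the log2 scale, the interaction of the drugs was called in 6 of the 10 genes, negative in each. Among all tested genes, 27.0% had a called negative and 24.5% a called positive interaction, so a called interaction in either direction was common. The difference between the CDK4/6i effect with ATRA and without it was -0.14 for POLR1A, -0.64 for POLR1B, -0.68 for POLR1E, -0.19 for POLR1F, -0.82 for POLR1G and -0.31 for TAF1D. The call of POLR1A was lost without any 1 of 8 libraries and that of POLR1F without any 1 of 3. For the precursor entry RNA45SN2, at 170 counts in all, it was 1.46 (adjusted p = 0.0272 by edgeR's test), and with library size alone that call was lost (1.14, adjusted p = 0.0812). For RNA45SN4, the other precursor entry tested, at 427 counts in all, it was 0.30 (adjusted p = 0.532 by the same edgeR test) and with library size alone -0.018 (adjusted p = 0.974).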

How the results depend on the processing

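Of 56 called results among 70 on the 10 genes over 7 comparisons, 49 kept their direction and call under every alternative tried. With the linear scale, the genes with a called interaction went from 6 lower and 0 higher to 2 lower and 2 higher, and POLR1G turned to 7.03 CPM. With library size alone, the interaction turned to -0.26 for UBTF, -0.11 for TAF1C and -0.060 for RRN3, and RRN3 turned to -0.18 against ATRA alone (both drugs), -0.18 against CDK4/6i alone (both drugs) and 0.00032 (ATRA against CDK4/6i). Without a filter, the interaction of UBTF was -0.028 and the change of RRN3 with both drugs against CDK4/6i was -0.0061. Leaving out each library in turn put RRN3 between -0.55 and 0.20 with ATRA, -0.29 and 0.23 with CDK4/6i, -0.20 and 0.32 with both, -0.10 and 0.52 for both against ATRA, -0.048 and 0.21 for both against CDK4/6i, -0.10 and 0.65 for the interaction and -0.42 and 0.20 for ATRA against CDK4/6i, and it put TAF1D for both against ATRA between -0.092 and 0.044. The causes were not tested. Libraries with the same replicate number did not deviate together (r from -0.07 to 0.033). Such values cannot tell whether same-numbered libraries came from the same experiment. With a replicate block, 5 genes in place of 6 had a called interaction, POLR1A losing its call (-0.14, adjusted p = 0.0566 by edgeR's test). No other call of the 10 genes changed with the block. Low counts limit the results on RRN3, with 13 to 34 counts per library, and on POLR1G with both drugs, with 16 to 18.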
